A study of Mus musculus with 3 samples.

Results

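Annexins are cytosolic proteins that bind acidic phospholipids when calcium rises, and several of them also bind actin filaments. They sit at the same membrane and actin boundary as ezrin, which links membrane proteins to the actin cortex. In bone-forming cells annexins are best known from matrix vesicles, the membrane particles in which mineral first forms. The set described here is 8 annexin genes, Anxa1, Anxa2, Anxa3, Anxa4, Anxa5, Anxa6, Anxa7 and Anxa11, which were taken by symbol from the deposited gene tables. All 8 were found among the 41743 symbols of those tables, and all 8 had counts high enough to be tested.

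The measurement was RIP-seq, in which RNA that comes down with an antibody is sequenced. The ezrin IP group holds 2 libraries made with an antibody to ezrin, and the IgG IP group holds 1 library made with normal mouse IgG, which gives the background. All 3 libraries come from K7M2, a mouse osteosarcoma line, with the genotype Ezrin -/- and a stably transfected Ezrin T567A cDNA, and the labels state no treatment. T567A replaces the threonine whose phosphorylation opens ezrin and is used as a form that stays closed. The state of ezrin in these cells was not measured here. No library of wild-type cells and no input RNA was analysed here, and the labels do not say whether the line is 1 clone or whether the ezrin libraries come from separate cultures. The p-values therefore rest only on the spread between the ezrin libraries, which may be technical. That spread was pooled over genes, so the p-value and SE of a gene do not measure the gap between its own ezrin values.

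The promoters of Anxa5, Anxa2 and Anxa1, the 3 annexins with the highest level per gene length in the ezrin libraries, are shown to place these genes in the genome, although RIP-seq measures recovered RNA and not promoter use. Each run is the 120 bases before the RefSeq start site in GRCm38.p6, 5′ to 3′ on the gene's strand, with capitals marking matches to TATAAA (the TATA box), GGGCGG (the GC box) or CCAAT on either strand.
Anxa5, chr3:36475888-36476007, minus strand: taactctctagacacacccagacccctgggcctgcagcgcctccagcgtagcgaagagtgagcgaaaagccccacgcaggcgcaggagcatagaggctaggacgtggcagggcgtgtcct
Anxa2, chr9:69453563-69453682, plus strand: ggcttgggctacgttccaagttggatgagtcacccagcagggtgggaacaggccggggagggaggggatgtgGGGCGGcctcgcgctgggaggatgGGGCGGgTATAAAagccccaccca
Anxa1, chr19:20390672-20390791, minus strand: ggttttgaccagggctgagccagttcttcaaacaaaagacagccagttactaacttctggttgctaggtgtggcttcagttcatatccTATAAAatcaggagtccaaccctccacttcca
Anxa2 and Anxa1 hold TATAAA just before the start, a motif found in 6.34% of 32851 promoter windows of this length, and Anxa5 holds none of the 3 motifs. In Anxa2 a pair of GGGCGG matches lies upstream of TATAAA, without overlap, and GGGCGG occurs in 26.5% of all windows. RefSeq promoters were at hand for 6 of the 8 annexins, of which 3 held GGGCGG and none held CCAAT (21.3% of all windows).

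Total counts were 19676595 and 16196329 in ezrin replicates 1 and 2 and 10124580 in IgG. The IgG library stood apart in its make-up. Protein-coding genes held 97.5% and 98.1% of counts in the ezrin libraries and 74.7% in IgG, and the ribosomal RNA remnants Gm26917 and Gm42418 held 0.122% and 0.198% in the ezrin libraries and 16.5% in IgG. The bone matrix messages Col1a1, Col1a2, Sparc and Spp1 were present, with Col1a2 at 2933 and 2247 CPM in the ezrin libraries and 1184 CPM in IgG, whereas the osteoblast markers Ibsp, Bglap, Sp7, Bglap2 and Dmp1 had at most 5 counts in any library. Of the 11 osteoblast markers 6 were tested, and Col1a2, Sparc and Spp1 were called higher in the ezrin libraries. Called lower were Runx2, at 37.6 and 35.7 CPM in the ezrin libraries and 61.0 CPM in IgG (log2 fold −0.73, edgeR adjusted p = 0.0104), and Alpl, at 1.39 and 1.01 CPM in the ezrin libraries and 3.45 CPM in IgG (log2 fold −1.50, edgeR adjusted p = 0.0258). Alpl had at most 33 counts in any library. Under the alternatives described below, Col1a2 and Sparc were not called after cyclic loess, and Runx2 was not called by DESeq2 or limma. The Alpl call was not made by DESeq2, after cyclic loess or by limma on log2(RPKM + 0.1). The 6 epithelial markers together stayed below 1 CPM. Of 8 macrophage markers, Csf1r was high at 963 and 870 CPM in the ezrin libraries and 1233 CPM in IgG. Cd14 was present at 26.7 and 28.7 CPM in the ezrin libraries and 21.5 CPM in IgG, and Mrc1 at 1.29 and 2.32 against 1.04 CPM. Cd68, Fcgr1 and Itgam had at most 7 counts in any library, and Ptprc and Adgre1 had no count in any library. The summed macrophage markers were at 992 and 901 CPM in the ezrin libraries and 1256 CPM in IgG. Their part in the annexin values was not tested.

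All 8 annexin messages were more abundant in both ezrin libraries than in the IgG library. CPM below are counts per 1e6 counts after TMM scaling, and a gene was called at 0.05 in the quasi-likelihood test of edgeR, adjusted over 12478 tested genes by the Benjamini-Hochberg method. By this test 8 of 8 annexins were called higher and none lower, against a background of 19.0% of tested genes called higher and 17.4% called lower. The 8 were chosen with earlier results of these data known. The other 2 tested annexins, Anxa8 and Anxa9, were not called, so the count does not hold for the whole family. The difference between ezrin IP and IgG IP was at least 2-fold for 7 of the 8, against 9.83% of tested genes called higher by that much. This count depended on scaling. After cyclic loess, described below, Anxa2 (log2 fold 0.75) and Anxa1 (0.90) also fell below 2-fold, as did Anxa3 (0.28), although Anxa2 and Anxa1 stayed called. The median log2 fold of the annexins was 1.29, against −0.02 over all tested genes. The 8 genes together took 0.409% (95% exact interval 0.406 to 0.412) and 0.428% (0.425 to 0.431) of all counts in ezrin replicates 1 and 2, and 0.150% (0.148 to 0.152) in IgG. These intervals cover counting error only. Of counts in protein-coding genes alone, the annexin share was 0.419% and 0.436% in the ezrin libraries and 0.201% in IgG.

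Calls were more frequent among abundant genes, so the annexins are also set against genes of their own level. Anxa2 lies in the tier with a mean of at least 1000 CPM, where 66.7% of 72 genes were called higher. Anxa5, Anxa1, Anxa3 and Anxa7 lie between 100 and 1000 CPM, where 37.6% of 2175 genes were called higher. Anxa4, Anxa6 and Anxa11 lie between 10 and 100 CPM, where 20.6% of 6356 genes were called higher. The medians of these 3 tiers were log2 folds of 0.79, 0.28 and 0.03, in the same order, and each annexin lay above the median of its tier.

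**Figure D1:**
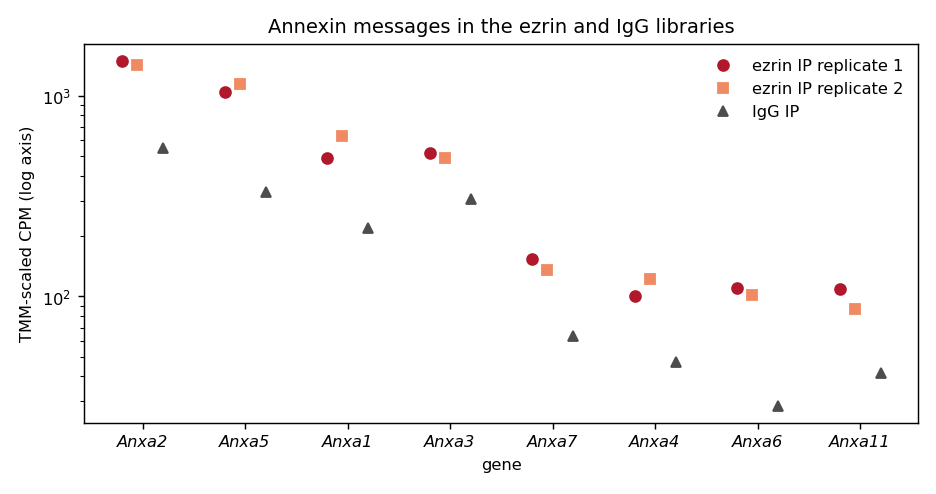
TMM-scaled CPM (log axis) of each annexin gene in ezrin replicate 1 (circles), ezrin replicate 2 (squares) and the IgG library (triangles), 1 point per library, in order of mean level. For all 8 genes both ezrin points lie above the IgG point, from Anxa2 at 1486 and 1415 CPM in the ezrin libraries against 550 CPM in IgG to Anxa11 at 109 and 86.4 CPM against 41.8 CPM.

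Anxa1, Anxa2 and Anxa5 are the annexins best known at the cell surface and its cortex, and all were higher with the ezrin antibody. Anxa2 (chromosome 9, 69453683 to 69491792, GRCm38) encodes annexin A2, which binds actin filaments and joins S100A10 in a complex under the plasma membrane. It had 29845 and 23749 counts in ezrin replicates 1 and 2, or 1486 and 1415 CPM, against 5267 counts, or 550 CPM, in IgG. The ezrin libraries lay close together and both lay well above IgG, with a 2.64-fold difference (log2 fold 1.40, SE 0.23, edgeR adjusted p = 1.97e-08). Annexin A2 has itself been described as an RNA-binding protein. Here it was measured only as a message.

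Anxa5 (chromosome 3, 36448923 to 36475887) encodes annexin A5, which coats membranes that expose phosphatidylserine and is used to stain dying cells. Its message stood at 1041 and 1150 CPM in the ezrin libraries, from 20894 and 19308 counts, against 331 CPM in IgG, from 3171 counts. Both ezrin values were more than 3-fold above IgG (fitted difference 3.31-fold, log2 fold 1.73, SE 0.23, edgeR adjusted p = 9.36e-12). Anxa1 (chromosome 19, 20373434 to 20390671) encodes annexin A1, a glucocorticoid-induced protein that limits inflammation through formyl peptide receptors. Anxa1 had 487 and 629 CPM in the ezrin libraries, from 9782 and 10550 counts, against 220 CPM in IgG, from 2107 counts. The ezrin libraries differed 1.29-fold from each other, the widest gap among the 8, and both stayed above IgG (2.53-fold, log2 fold 1.34, SE 0.24, edgeR adjusted p = 2.94e-07).

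Anxa6 had the largest difference of the 8 and Anxa3 the smallest. Anxa6 (chromosome 11, 54978953 to 55033471) encodes annexin A6, which carries a duplicated annexin core and acts on endosomes, cholesterol transport and Ras signalling. It had 2220 and 1705 counts in the ezrin libraries, or 111 and 102 CPM, against 274 counts, or 28.6 CPM, in IgG. The difference was 3.71-fold (log2 fold 1.89, SE 0.27, edgeR adjusted p = 1.57e-10), which placed Anxa6 at percentile 98.3 of all tested genes. Anxa3 (chromosome 5, 96793385 to 96845968) encodes annexin A3, known in neutrophils for binding to granules and phagosomes. Anxa3 had 519 and 488 CPM in the ezrin libraries, from 10419 and 8197 counts, against 304 CPM in IgG, from 2913 counts. Both ezrin values lay above IgG, by 1.66-fold in the fit (log2 fold 0.73, SE 0.23, edgeR adjusted p = 0.00634), at percentile 81.0 of all tested genes. The Anxa3 call was lost when levels were aligned by cyclic loess, a scaling that takes out any trend with abundance (log2 fold 0.28, edgeR adjusted p = 0.349), and across the other settings with a test its adjusted p ran between 0.00125 and 0.0189.

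Anxa4, Anxa7 and Anxa11 were less abundant and lay within a narrow range of differences. Anxa4 (chromosome 6, 86736840 to 86793634), whose protein binds secretory and epithelial membranes, had 101 and 123 CPM in the ezrin libraries and 47.1 CPM in IgG (log2 fold 1.25, SE 0.26, edgeR adjusted p = 1.58e-05). Anxa7 and Anxa11 (chromosome 14, 20455261 to 20480133 and 25842127 to 25886804) encode the annexins with long amino-terminal tails. Annexin A7, or synexin, was first described in membrane fusion, and annexin A11 tethers RNA granules to lysosomes. Anxa7 had 154 and 135 CPM in the ezrin libraries and 63.4 CPM in IgG (log2 fold 1.19, SE 0.25, edgeR adjusted p = 3.09e-05). Anxa11 had 109 and 86.4 CPM in the ezrin libraries and 41.8 CPM in IgG (log2 fold 1.22, SE 0.26, edgeR adjusted p = 2.63e-05). For these 3 genes too, the lower ezrin value lay above the IgG value.

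Set singly against IgG, ezrin replicate 1 and ezrin replicate 2 gave ratios above 1 for each annexin, with exact 95% intervals for counting error that also lay above 1. The lowest was Anxa3, at 1.71 (1.64 to 1.78) in replicate 1 and 1.61 (1.54 to 1.68) in replicate 2. The highest was Anxa6, at 3.86 (3.41 to 4.40) and 3.55 (3.12 to 4.05) in the same order. Anxa6, Anxa5 and Anxa3 held the first, second and last place in both ezrin libraries, while the genes between them changed places. Anxa1 was at 2.21 (2.11 to 2.32) in replicate 1 and 2.86 (2.73 to 2.99) in replicate 2, and Anxa11 at 2.60 (2.33 to 2.90) and 2.07 (1.85 to 2.32). For Anxa1, Anxa5 and Anxa11 the counting intervals of the ezrin libraries did not overlap, so these libraries differed from each other by more than counting error. Every interval also carries the counting error of the shared IgG library. Overlap for the other annexins therefore does not show that their ezrin libraries agreed within counting error. Across 2247 genes at a mean CPM of 100 or more the log2 ratio of ezrin replicate 2 to replicate 1 had an SD of 0.28, and among the annexins it ran from −0.33 (Anxa11) to 0.37 (Anxa1). Both libraries share the same IgG library, so their ratios are not independent of each other.

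**Figure D2:**
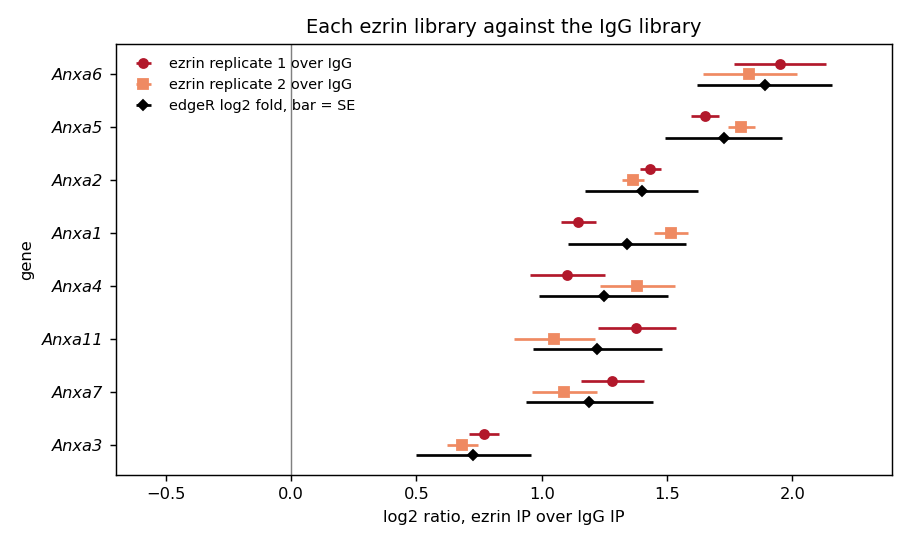
Log2 ratio of ezrin IP to IgG IP for each annexin: ezrin replicate 1 (circles) and replicate 2 (squares) with exact 95% intervals for counting error, and the edgeR log2 fold (diamonds) with its SE. All points lie right of 0, with Anxa6 at the top (log2 fold 1.89) and Anxa3 at the bottom (0.73), and the SE of the fit is wider than the counting intervals of the abundant genes.

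Levels of different annexins were compared on the deposited RPKM, which divides by gene length. Deposited counts over RPKM implied lengths of 1777 bases for Anxa5 up to 5991 bases for Anxa7, and a different gene model would move these levels. In the ezrin libraries Anxa5 led with 525 ± 46.9 RPKM (SD, n = 2), followed by Anxa2 with 331 ± 5.39, Anxa1 with 163 ± 32.2 and Anxa3 with 118 ± 2.86 RPKM. Anxa6 came next with 30.8 ± 1.27 RPKM, ahead of Anxa4 with 20.5 ± 3.18, Anxa7 with 20.5 ± 1.53 and Anxa11 with 20.0 ± 2.85 RPKM, and those last 3 differed by less than their spread. In the IgG library the order began the same, with Anxa5 at 121 RPKM and Anxa2 at 95.8 RPKM, but Anxa3 (54.2 RPKM) stood above Anxa1 (49.1 RPKM). Anxa6 had the lowest RPKM of the 8 in IgG, at 6.34, next to Anxa11 at 6.56, Anxa4 at 6.59 and Anxa7 at 6.87 RPKM. Anxa5 ranked 50 and 39 among all symbols by RPKM in ezrin replicates 1 and 2 and 189 in IgG.

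The make-up of the annexin messages within a library does not depend on scaling between libraries. Anxa5 made up 41.7% and 43.7% of the summed annexin RPKM in the ezrin libraries and 34.9% in IgG. The Anxa3 share was 10.1% and 9.05% in the ezrin libraries and 15.7% in IgG. Anxa6 held 2.69% and 2.34% in the ezrin libraries and 1.83% in IgG. For these 3 genes the IgG share lay outside the span of the ezrin shares, as it did, by a small margin, for Anxa4 (1.55% and 1.78% against 1.90%), Anxa7 and Anxa11. For Anxa2 it lay inside, at 28.4% and 25.6% in the ezrin libraries and 27.6% in IgG, as it did for Anxa1 at 11.9% and 14.6% in the ezrin libraries and 14.2% in IgG. These shifts of make-up were not tested.

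**Figure D3:**
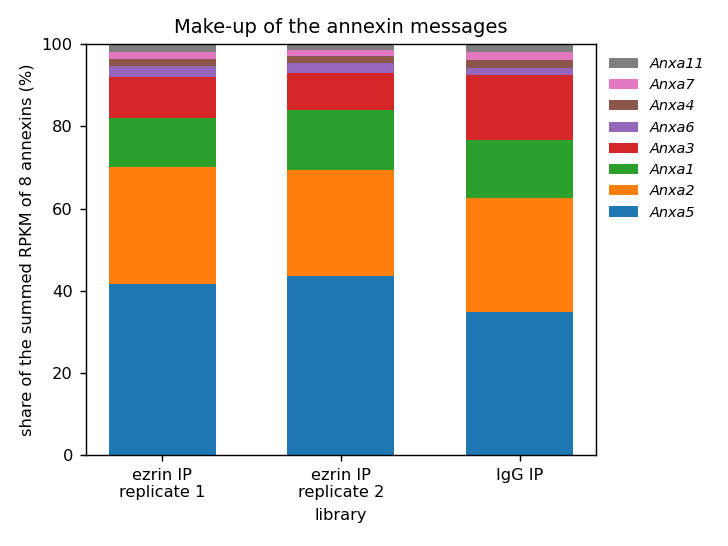
Share (%) of each annexin in the summed RPKM of the 8 annexins, 1 stacked bar for each library. Anxa5 (bottom) takes 41.7% and 43.7% in the ezrin libraries and 34.9% in IgG, and Anxa3 10.1% and 9.05% in the ezrin libraries and 15.7% in IgG.

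The tables hold 12 annexin genes in all, and the other 4 were rare. Anxa8 had 219 and 239 counts in the ezrin libraries, or 10.9 and 14.2 CPM, against 73 counts, or 7.62 CPM, in IgG, and did not pass (log2 fold 0.72 with SE 0.32, edgeR adjusted p = 0.0632). Anxa9 had 6.23 and 4.59 CPM in the ezrin libraries and 8.04 CPM in IgG and did not pass either (log2 fold −0.57 with SE 0.36, edgeR adjusted p = 0.206). Anxa13 had 1 and 3 counts in the ezrin libraries and 0 in IgG, and Anxa10 had no count in any library, so neither was tested. A count of 0 allows up to 3 counts per library. Anxa8 was called higher under 5 of the 10 alternatives, with library size only (adjusted p = 0.0275 by edgeR), without a filter, after cyclic loess and by limma on RPKM with either pseudocount. Anxa8 and Anxa9 lay on opposite sides of IgG, and a log2 fold close to that called for Anxa3 was not called for Anxa8.

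Small calcium-binding S100 proteins bind the amino-terminal tails of several annexins, and their messages were read from the same fit. Of 15 S100 genes, 9 were tested, 2 were called higher and 1 lower, which is near the 19.0% higher and 17.4% lower of all tested genes, and their median log2 fold was 0.05, against −0.02 over all tested genes. S100a10, whose protein is the partner of annexin A2, had 388 and 351 CPM in the ezrin libraries and 371 CPM in IgG, so the IgG value lay between the ezrin values (log2 fold −0.01, SE 0.22, edgeR adjusted p = 0.987). Across the alternatives its log2 fold ran from −0.43 after cyclic loess to 0.38 on RPKM, a scaling that raised the median of all tested genes, and none of them called it. Anxa2 counts were 3.83 and 4.03 times S100a10 counts in the ezrin libraries and 1.48 times in IgG. Such ratios are taken within each library and so are free of scaling, and they compare libraries only, since the genes differ in length. As multiples of the IgG ratio, Anxa2 to S100a10 was 2.585 and 2.72 in ezrin replicates 1 and 2. Other annexin to partner ratios were also above IgG, by varied amounts. Anxa2 to Ahnak was 3.16 and 2.43 times the IgG ratio, and Anxa7 to Sri 2.36 and 1.56 times. Anxa11 to Pdcd6 was 1.86 and 1.38 times, Anxa1 to S100a11 1.25 and 2.77 times, and Anxa11 to S100a6 1.28 and 1.45 times. S100a11, whose protein binds annexin A1, differed between the ezrin libraries, at 1278 and 744 CPM against 722 CPM in IgG, and did not pass (log2 fold 0.49 with SE 0.22, edgeR adjusted p = 0.0654). It was called higher with library size only and without a filter, and its log2 fold was −0.13 after cyclic loess.

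The S100 messages that rose were S100a6 and S100a4. S100a6, whose protein binds annexin A11, had 1916 and 1345 CPM in the ezrin libraries and 944 CPM in IgG (log2 fold 0.79, SE 0.22, edgeR adjusted p = 0.00158). S100a4, a metastasis-associated protein that binds nonmuscle myosin and annexin A2, had 1132 and 1160 CPM in the ezrin libraries and 541 CPM in IgG (log2 fold 1.08, SE 0.22, edgeR adjusted p = 1.66e-05). Neither call held after cyclic loess, where no S100 gene was called higher. S100a7a was called lower (log2 fold −0.60, SE 0.25, edgeR adjusted p = 0.048), a call that 6 of the alternatives did not make.

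Among 11 listed annexin partners and receptors, 8 were tested, 3 were called higher and none lower, and the median log2 fold was 0.51. Of all tested genes 19.0% were called higher and 17.4% lower. The tested partners differed in level. Plat and Pdcd6 had a mean of 10 to 100 CPM, where 20.6% of genes were called higher. S100a10, S100a11, S100a4 and Sri lay between 100 and 1000 CPM, where 37.6% were called higher. Ahnak and S100a6 had at least 1000 CPM, where 66.7% were called higher. Besides S100a6 and S100a4 the higher one was Plat, at 31.7 and 35.0 CPM in the ezrin libraries and 11.2 CPM in IgG (log2 fold 1.58, SE 0.29, edgeR adjusted p = 8.36e-07). Plat encodes tissue plasminogen activator, which binds the annexin A2 complex at the cell surface. Ahnak, a giant scaffold held at the membrane by annexin A2 and S100A10, was the most abundant partner, at 2997 and 3705 CPM in the ezrin libraries and 3503 CPM in IgG. The IgG value again lay between the ezrin values (log2 fold −0.06, SE 0.20, edgeR adjusted p = 0.824). Ahnak was called lower after cyclic loess (log2 fold −0.99, edgeR adjusted p = 2.48e-06) and had small positive values that were not called with library size only (0.06) and on RPKM (0.31 with a pseudocount of 1). Pdcd6, which encodes the annexin A7 and A11 ligand ALG-2, was at 82.0 and 87.5 CPM in the ezrin libraries and 58.6 CPM in IgG and was not called (log2 fold 0.53, edgeR adjusted p = 0.0787), although it passed with library size only, without a filter and by limma on RPKM. Sri, which encodes the annexin A7 ligand sorcin, was at 174 and 231 CPM in the ezrin libraries and 169 CPM in IgG (log2 fold 0.26, edgeR adjusted p = 0.402). The formyl peptide receptor genes had at most 1 count in any library, and plasminogen, Plg, had none. Whether the annexin folds differ from those of their partners was not tested.

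**Figure D4:**
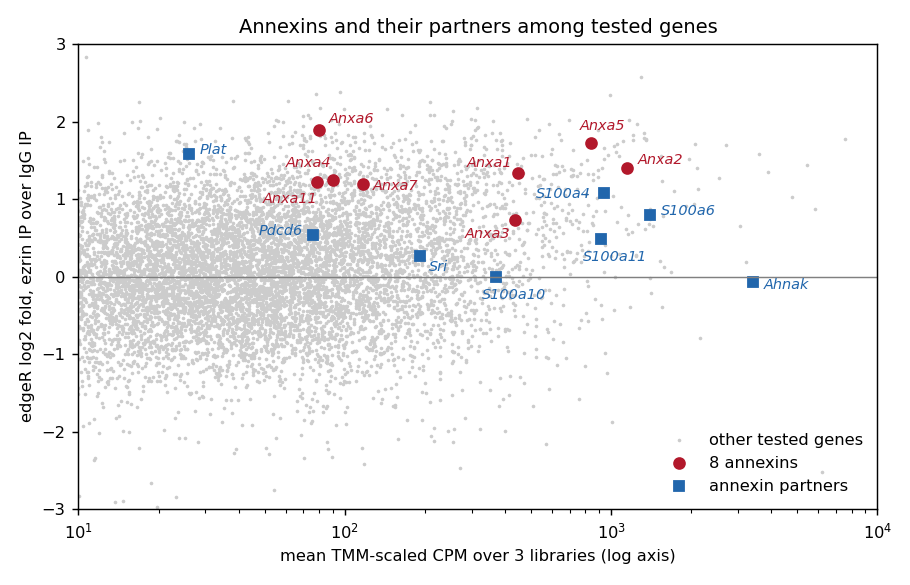
edgeR log2 fold of ezrin IP over IgG IP against the mean TMM-scaled CPM over 3 libraries (log axis) for tested genes at a mean CPM of 10 or more (grey), the 8 annexins (circles) and 8 tested annexin partners (squares), with 36 of 8603 genes outside the axes. The annexins lie between 0.73 and 1.89, while S100a10 (−0.01) and Ahnak (−0.06) lie at 0.

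Genes of plasma membrane repair and ESCRT, processes in which annexins take part, were read in the same way. Of 28 listed genes, 23 were tested, 9 were called higher and 3 lower, beside 19.0% higher and 17.4% lower of all tested genes. Most of the tested genes of the list had a mean of 10 to 100 CPM, where 20.6% of genes were called higher. The share was 37.6% between 100 and 1000 CPM and 66.7% at 1000 CPM or more, the tier of Myof and Cavin1. The median log2 fold was 0.50. Myof, which encodes the membrane repair protein myoferlin, was the most abundant and the highest, at 2343 and 2673 CPM in the ezrin libraries and 878 CPM in IgG (log2 fold 1.52, SE 0.22, edgeR adjusted p = 3.4e-10). The caveolar coat gene Cavin1 (log2 fold 0.79, edgeR adjusted p = 0.00169) and Ehd2, a membrane-shaping ATPase gene (log2 fold 1.30, edgeR adjusted p = 4.7e-07), were also higher. Cav2, which encodes the caveolar protein caveolin-2, was the lowest called gene, at 37.6 and 39.3 CPM in the ezrin libraries and 87.5 CPM in IgG (log2 fold −1.19, SE 0.24, edgeR adjusted p = 9.84e-06). After cyclic loess 4 genes of the list were called higher in place of 9, and Cavin1 was not among them (log2 fold 0.13, edgeR adjusted p = 0.676).

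Copines and extended synaptotagmins, which also bind membranes in response to calcium, had few measured members. Of 12 listed genes, 6 were tested, 1 was called higher and 1 lower, beside 19.0% higher and 17.4% lower of all tested genes, and the median log2 fold was 0.21. Cpne8 was at 108 and 133 CPM in the ezrin libraries and 73.6 CPM in IgG (log2 fold 0.71, SE 0.25, edgeR adjusted p = 0.0149), a call not made after cyclic loess. Esyt2, which tethers the endoplasmic reticulum to the plasma membrane, was at 73.8 and 86.4 CPM in the ezrin libraries and 144 CPM in IgG (log2 fold −0.85, SE 0.23, edgeR adjusted p = 0.0016), a call not made by limma on RPKM. Cpne1, the most abundant of the list, was at 114 and 130 CPM in the ezrin libraries and 94.0 CPM in IgG and was not called (log2 fold 0.38, edgeR adjusted p = 0.217), although limma on RPKM called it higher.

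The genes whose values were most like those of Anxa5, the annexin with the highest RPKM, were Cct2, Hk1 and Ctnnb1. Likeness was the Euclidean distance between pairs of log2 ratios to IgG, 1 for each ezrin library with 1 CPM added to both sides, over 291 genes within 2-fold of the mean CPM of Anxa5. The distances were 0.0898 for Cct2, a chaperonin subunit gene, 0.108 for Hk1, which encodes hexokinase 1, and 0.124 for Ctnnb1, which encodes beta-catenin. Cct2 had log2 ratios of 1.73 and 1.76 in ezrin replicates 1 and 2, against 1.65 and 1.79 for Anxa5. The measure rests on 3 libraries and on a single IgG value.

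How reads were assigned could touch single values. The opposite-strand gene Anxa11os had 0 and 1 counts in the ezrin libraries and 6 in IgG. Anxa11 itself had 2179 and 1450 counts in the ezrin libraries and 400 in IgG. Counts given to Anxa11os do not show how many opposite-strand reads were counted in Anxa11. The long noncoding gene Gm19911 overlaps Anxa6 and was not counted under its own symbol. The effect of either gene on the annexin values was not tested. The use of strand, and of reads shared between Anxa2 and its pseudogene Gm41080, is unstated in the labels.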

How the data were processed

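RIP-seq libraries were analysed from 2 immunoprecipitations with anti-ezrin and 1 with IgG. The deposited tables give, for every gene symbol of a library, the authors' raw count and its RPKM, scaled for gene length and sequencing depth. The genome build was GRCm38, per the submitters' processing notes. The sources used here do not give the aligner, counter, annotation or use of strand. The labels name both polyA RNA and ribosomal RNA depletion.

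Counts were fitted with edgeR 4.0.16 in R 4.3.3 (TMM, filterByExpr by group, quasi-likelihood test, Benjamini-Hochberg at 0.05) over 12478 genes. There was 1 residual degree of freedom, with infinite prior degrees of freedom, so the spread was pooled over genes and IgG was assumed to vary like the ezrin libraries. The SE is the size of the log2 fold over the square root of F. Total counts of 10124580 to 19676595 set the counting precision. The fit was tested on simulated data in which IgG was given the same spread as the ezrin libraries, so the simulation cannot check that assumption. DESeq2 1.42.0 and limma 3.58.1 served as alternatives, limma on log2(RPKM + 1) and log2(RPKM + 0.1). RefSeq (GRCm38.p6) matched 30407 of 41743 symbols and supplied coordinates, biotypes and promoters. Mean folds of RPKM are shifted by its read totals, of which assigned counts made up 82.3%, 83.2% and 68.7% in ezrin replicates 1 and 2 and IgG.

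The members and lists were chosen with earlier results of these data known. The rule for which genes to name in the text took the 8 members, the annexins outside the set, and from each related list the 3 most abundant genes and the highest and lowest called. S100a10, Pdcd6 and Sri were named in addition as partners, after their values were seen, as were the ratios of annexins to their partners.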

Additional observations from a re-analysis of the deposited data

How the results depend on the processing

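Of 80 annexin log2 folds refitted under 10 alternatives with a test, 79 kept their direction and stayed past the threshold, the exception being Anxa3 after cyclic loess. The scalings moved all genes: the median log2 fold of all tested genes was 0.10 with library size only, −0.12 with the upper quartile, and 0.22 and 0.34 with limma on log2(RPKM + 1) and log2(RPKM + 0.1), against −0.02. The annexin median was 1.42 with library size only, 1.20 with the upper quartile, 1.05 after cyclic loess, 1.39 without a filter, 1.18 at a mean of at least 10 CPM, and 1.60 and 1.67 with limma on log2(RPKM + 1) and log2(RPKM + 0.1). Leaving out ezrin replicate 1 or 2 gave 1.40 and 1.33 with no test. Over all genes, limma on log2(RPKM + 1) called 3734 higher and 964 lower, limma on log2(RPKM + 0.1) called 3745 and 843, and DESeq2 called 1101 lower, against 2377 higher and 2170 lower.

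Among S100 genes none was called higher after cyclic loess (0), and 0 were lower with library size only, with DESeq2 size factors, without a filter, with DESeq2 and with limma at both pseudocounts. Of the partners, 5 were higher with library size only and without a filter, and 1 was higher and 1 lower after cyclic loess. Of the repair genes, 4 were higher after cyclic loess, and 1 was lower with library size only, without a filter, with DESeq2 and with limma. Of the copines and synaptotagmins, 0 were higher after cyclic loess, and 2 were higher and 0 lower with limma. For these lists the cause was not tested. No paired analysis was possible because the ezrin and IgG libraries share only replicate number 1. The single IgG library limits every comparison, since its own spread is unknown.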
